A study of Mus musculus with 6 samples.

Results

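The epidermal growth factor (EGF) family and its ErbB receptors were examined here as 9 genes, the receptors Egfr, Erbb2 and Erbb3 and the ligands Areg, Ereg, Hbegf, Tgfa, Btc and Epgn, taken by gene name from 54532 genes with read counts. Smart-seq2, which makes full-length cDNA from little RNA, was applied to 6 libraries from back skin epidermis, dissociated to single cells, of C57BL/6 mice 4 weeks old. Of these, 3 form the NCAM-enriched group, made of cells sorted as positive for the surface marker NCAM, which the study used to purify Merkel cells, the touch-sensing neuroendocrine cells of the epidermis. The bulk skin group has 3 libraries of epidermal cells with no selection for NCAM, so it can include Merkel cells. Both groups were selected for cells that exclude the dye DAPI, and 500 events were sorted per library. The sources do not say that libraries of a group came from separate animals, so the p-values measure only the spread between these libraries, which may be technical.

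ErbB receptors are tyrosine kinases that act as dimers. EGF ligands are made as membrane-anchored precursors, are cut free by ADAM proteases and bind Egfr or Erbb4, whereas neuregulins bind Erbb3 or Erbb4. Erbb2 has no known ligand of its own and serves as a dimer partner, and Erbb3 has little kinase activity and signals through its partner. In skin, this pathway is known for driving keratinocyte growth and for its part in hair follicle and barrier upkeep.

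Of the 9 genes, 1 passed the test over all genes (Erbb2, higher in the NCAM-enriched libraries), beside 2.59% of all 13157 genes tested (edgeR quasi-likelihood test, Benjamini-Hochberg adjusted p at most 0.05). Erbb2 was 6.32-fold higher, while Erbb3 and Egfr overlapped between the groups. In such pools of cells, fewer cells of a type and less RNA per cell cannot be told apart. Among the ligands, Ereg was found almost only in the NCAM-enriched libraries and Epgn almost only in bulk skin, although neither passed by edgeR. The groups did not overlap for 3 of the 9 genes (Erbb2, Ereg and Epgn), and they did not overlap for 30.4% of all genes tested. Ereg passed the filter on low counts only through the NCAM-enriched group and Epgn only through bulk skin. Their lack of overlap is therefore not independent of the filter. The median log2 fold change (NCAM-enriched over bulk skin) was 0.30 over the 9 genes and -0.07 over all genes tested. DESeq2 called Erbb2 and Ereg higher and Epgn lower, where it called 7.64% of all genes higher and 6.65% lower (14.3% in all). limma-voom called the same 3 genes in the same directions, where it called 2.67% of all genes higher and 6.45% lower (9.12% in all).

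The ligands Epgn, Ereg, Areg and Btc are neighbors in the genome. Epgn (chromosome 5, 91027464 to 91035215, GRCm38), Ereg (91074622 to 91093646) and Areg (91139599 to 91148432) lie in a row on the plus strand, and Btc (91357261 to 91402994) follows on the minus strand. Together they span 376 kb and are the 4 protein-coding genes annotated there. The gaps between neighbors are 39.4 kb, 46 kb and 209 kb. Neighbors in this row did not take the same direction, as Epgn had nearly all of its counts in bulk skin, Ereg nearly all in the NCAM-enriched libraries, and Areg and Btc overlapped between the groups.

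RefSeq promoter windows (GRCm38.p6, 250 bases before to 50 after the annotated start) were matched by symbol for 6 of the 9 genes. The windows of Erbb2, the gene that passed the test, and of Epgn and Areg, the outer genes of the plus-strand row, which differed in pattern, are shown 5′ to 3′ on the plus strand, with every match to the searched motifs in capitals. These motifs were the TATA box (TATAAA), the AP-1 site (TGANTCA) and the GC box (GGGCGG), each on both strands, with no overlap between matches.
Erbb2 (chr11:98412234-98412533): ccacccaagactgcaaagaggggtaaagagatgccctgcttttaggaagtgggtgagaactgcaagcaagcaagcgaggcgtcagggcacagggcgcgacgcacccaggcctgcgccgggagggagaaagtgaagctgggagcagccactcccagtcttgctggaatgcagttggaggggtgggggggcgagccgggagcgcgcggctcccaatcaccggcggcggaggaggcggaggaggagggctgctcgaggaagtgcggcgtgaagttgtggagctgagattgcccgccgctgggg
Epgn (chr5:91027267-91027566): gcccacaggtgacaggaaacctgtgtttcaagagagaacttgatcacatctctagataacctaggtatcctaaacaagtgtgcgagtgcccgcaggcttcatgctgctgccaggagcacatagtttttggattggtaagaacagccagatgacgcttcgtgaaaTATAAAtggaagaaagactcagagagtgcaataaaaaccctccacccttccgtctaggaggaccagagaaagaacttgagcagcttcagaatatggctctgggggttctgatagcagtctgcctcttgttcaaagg
Areg (chr5:91139349-91139648): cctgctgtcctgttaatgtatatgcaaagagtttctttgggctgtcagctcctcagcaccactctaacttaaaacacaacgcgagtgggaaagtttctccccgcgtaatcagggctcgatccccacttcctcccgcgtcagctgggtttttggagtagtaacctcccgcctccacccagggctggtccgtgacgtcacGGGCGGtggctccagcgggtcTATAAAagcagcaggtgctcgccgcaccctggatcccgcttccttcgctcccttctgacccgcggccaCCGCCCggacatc
The letters TATAAA were in 2 of the 6 windows, Epgn and Areg, and in 13.6% of all 32851 windows of this length. In Areg they began 31 bases before the start in both RefSeq and GENCODE. In Epgn they began 86 bases before the RefSeq start and 33 bases before the GENCODE start, which lies within the window. The GC box was in the windows of Areg, Egfr and Tgfa and in 35.7% of all windows, and the AP-1 letters were in none of the 6 and in 7.81% of all windows. The Erbb2 window held none of these letters, and its GC content was 66.0%, beside 47.3% for Epgn, 59.3% for Areg and a median of 52.7% over all windows.

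Library totals ran from 1343190 to 4481830 counts, so that 1 count was worth 0.216 to 0.773 normalized CPM (counts over library sizes that were corrected with TMM factors). Mitochondrial genes held 0.896%, 1.97% and 0.313% of counts in the NCAM-enriched libraries and 0.139% to 0.263% in bulk skin, with no overlap (exact permutation test, two-sided p = 0.1, the smallest that 3 against 3 allows), and their part in the results was not tested. RNA of Ncam1, which encodes the NCAM protein, was at 117, 65.7 and 13.6 CPM against 32.0, 49.5 and 21.7 (edgeR adjusted p = 0.576), so NCAM-enriched library 3 was the lowest of all 6. This RNA is not a direct measure of the PSA-NCAM signal used for selection. Merkel cell markers were higher in the NCAM-enriched libraries, with 6 of 12 tested called and none lower, and their summed level was 1927, 2021 and 573 CPM, given as elsewhere in the order of libraries 1 to 3, against 153 to 211 in bulk skin. The same libraries also held more RNA of differentiating keratinocytes, with 8 of 14 suprabasal markers called higher. T and NK cell markers (9 of 11 tested called lower) and Langerhans and myeloid markers (9 of 12 called lower) were far lower there, as were 4 of 4 red blood cell markers. Hair follicle markers were mixed, with 1 of 9 tested called higher (Krt17) and 2 lower (Lgr6 and Postn), and 6 of the 9 had a log2 fold change below 0. edgeR called 0 of 12 basal keratinocyte and 0 of 8 fibroblast markers, of which 0 and 1 had an unadjusted p under 0.05, while DESeq2 called none of either list and limma-voom called 3 fibroblast markers lower. The NCAM-enriched libraries differed among themselves: library 2 held 34470 CPM of fibroblast markers against 1634 and 74.1 in libraries 1 and 3. Bulk skin held 14980, 19400 and 11500 CPM of these markers. Among the NCAM-enriched libraries, library 3 held the most RNA of basal keratinocyte markers (32780 CPM against 10750 and 9126). Library 3 also had the highest Krt17 (17800 CPM against 6880 and 4910) and Krt79 (10300 against 4950 and 961), keratins that made up most of the hair follicle sum in the NCAM-enriched libraries, whereas Lgr5 of the same list had no count there.

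**Figure D1:**
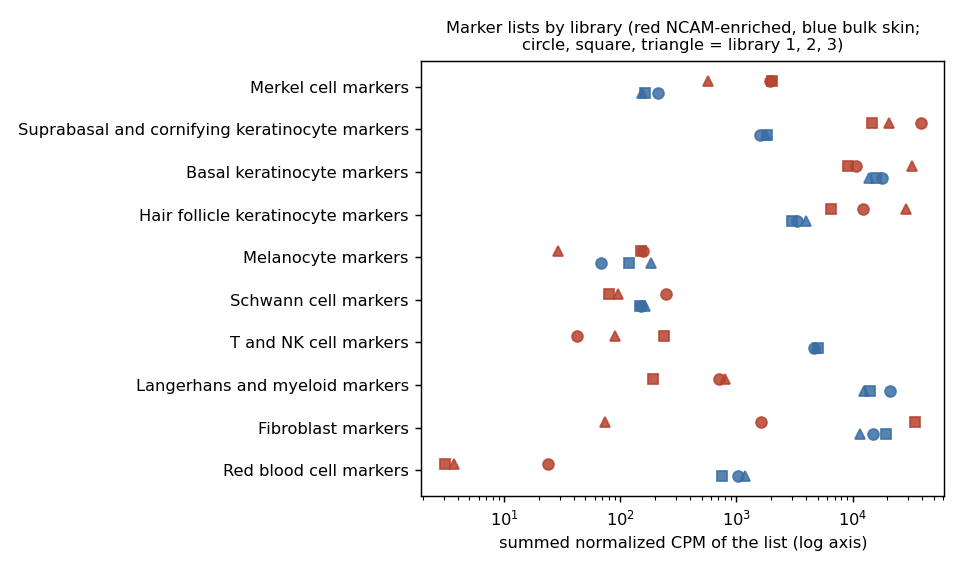
Summed normalized CPM of each marker list (x axis, log scale) in each library, with 3 NCAM-enriched libraries in red and 3 bulk skin libraries in blue. The T and NK, myeloid and red blood cell sums are lower and the Merkel cell and suprabasal sums higher in each NCAM-enriched library, and library 3 (triangle) has the lowest Merkel cell sum of its group, 573, while its hair follicle sum is mostly Krt17 and Krt79 and 6 of 9 tested genes of that list have a log2 fold change below 0.

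The receptors were compared first. Erbb2 (chromosome 11, 98412470 to 98437716, plus strand), the ligandless partner receptor, had 263, 134 and 1332 counts in the NCAM-enriched group against 113, 180 and 89 in bulk skin libraries 1 to 3. In normalized CPM these were 140, 104 and 378 against 35.1, 38.9 and 24.4. Every NCAM-enriched library lay above every bulk skin library, and NCAM-enriched library 3 stood above the other two. The means were 207 ± 149 and 32.8 ± 7.52 CPM (SD, n = 3), with a log2 fold change of 2.66 ± 0.56 (SE; edgeR quasi-likelihood adjusted p = 0.0473, from 0.000201 to 0.270 over 16 alternatives, of which 9 called it). The call was lost without NCAM-enriched library 1 (adjusted p = 0.0614) and without bulk skin library 1, 2 or 3 (0.270, 0.212 and 0.253), while the log2 fold change stayed between 1.83 and 2.97. The value of 1.83 came without NCAM-enriched library 3, where the call held (adjusted p = 0.0442). Across the NCAM-enriched libraries the order of Erbb2 (library 3, then 1, then 2) was also that of the hair follicle keratins Krt17 and Krt79 and of the summed basal keratinocyte markers. The summed Langerhans and myeloid markers and the library totals (3798136, 1995112 and 1343190 counts) took it too. Of that marker sum (796, 704 and 190 CPM in libraries 3, 1 and 2), Epcam made up 413, 389 and 132 CPM. Unlike the other genes of its list, Epcam had a log2 fold change above 0 (0.40, not called). The mitochondrial share (0.313%, 0.896% and 1.97% in libraries 3, 1 and 2) took the order reverse to that of Erbb2. So did the summed Merkel cell markers (573, 1927 and 2021 CPM) and the summed fibroblast markers (74.1, 1634 and 34470 CPM). Erbb2 was thus highest in the NCAM-enriched library with the least Merkel cell marker RNA. The part of these measures in the result was not tested. Other hair follicle markers did not take the order of Erbb2. Lgr5 had no count in NCAM-enriched library 3. Sox9 (162, 202 and 610 CPM in libraries 1 to 3) and Lrig1 (47.8, 92.7 and 228) were highest there, as Erbb2 was, but higher in library 2 than in library 1. Of the exonic bases of Erbb2, 0.173% are shared with Mien1.

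Erbb3 (chromosome 10, 128567523 to 128589652, minus strand), the neuregulin receptor with little kinase activity, had 191, 37 and 771 counts in the NCAM-enriched group against 87, 112 and 153 in bulk skin. As normalized CPM, these were 101, 28.6 and 219 against 27.0, 24.2 and 41.9. NCAM-enriched libraries 1 and 3 were above bulk skin and library 2 was within its range, so the groups overlapped. The log2 fold change was 1.91 ± 0.69 (SE; edgeR adjusted p = 0.176), and the gene was called without NCAM-enriched library 2 (log2 fold change 2.36, adjusted p = 0.0181) and when every gene with a count was kept (1.87, 0.0425). Without NCAM-enriched library 3 the log2 fold change was 1.02. Melanocytes and Schwann cells are also known to use Erbb3. Summed melanocyte markers were 156, 149 and 29.2 CPM in the NCAM-enriched group against 68.3 to 184 in bulk skin. Of the melanocyte list Mlana had no count in any library. Dct was at 64.1 CPM in NCAM-enriched library 2 and at most 2.66 elsewhere. The tested genes of this list were Mitf (log2 fold change 0.74 ± 0.79 SE), Sox10 (-0.53 ± 0.93) and Kit (-2.1 ± 1.18). Each had counts in every library. Sox10 is also on the Schwann cell list, so it is counted in both sums, with 80.8 CPM in NCAM-enriched library 1. Summed Schwann cell markers were 245, 79.6 and 94.8 against 146 to 163 CPM, with Foxd3 at 0 in all 6 libraries and Ncam1 counted in the sum, and edgeR called no tested gene of either list, with 0 of 3 melanocyte and 1 of 5 Schwann cell genes at an unadjusted p under 0.05, which DESeq2 and limma-voom called lower. The part of either cell type in the Erbb3 values was not tested.

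Egfr (chromosome 11, 16752203 to 16918158, plus strand), the receptor of all 6 ligands examined, had 135, 95 and 282 counts against 256, 488 and 524. The levels were 71.7, 73.4 and 80.0 CPM in NCAM-enriched libraries and 79.5, 105 and 144 in bulk skin. The NCAM-enriched libraries lay close together at the lower edge of the bulk skin range, and the groups overlapped by a narrow margin. The log2 fold change was -0.54 ± 0.39 (SE; edgeR adjusted p = 0.511), below 0 under all 16 alternatives and called under none.

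Per kilobase of exonic length, the scale on which genes can be compared, the receptors took a different order in each group. In bulk skin the order was Egfr (9.67 ± 2.85 CPM per kb, SD, n = 3), Erbb2 (6.30 ± 1.44) and Erbb3 (5.16 ± 1.58), and neighbors in this order overlapped. In the NCAM-enriched libraries it was Erbb2 (39.7 ± 28.6), Erbb3 (19.3 ± 15.9) and Egfr (6.63 ± 0.387), and neighbors overlapped here too. The ratio of Erbb2 to Egfr within a library, which does not depend on library size, was 4.24, 3.07 and 10.3 in the NCAM-enriched group against 0.960, 0.802 and 0.369 in bulk skin. Erbb2 thus exceeded Egfr per length in each NCAM-enriched library and in none of the bulk skin libraries. As a share of the summed receptor level, Egfr was 13.2 ± 7.39% against 45.1 ± 6.83% (SD, n = 3) and Erbb2 60.0 ± 5.58% against 30.7 ± 9.92%, while the Erbb3 share ran from 15.3% to 33.7% against 19.3% to 28.6%. Without the division by length, the Egfr share was 23.5 ± 12.0% against 62.4 ± 6.14% and the Erbb2 share 50.3 ± 5.60% against 19.8 ± 7.16%, so the direction of both was kept. The shares are a description and were not tested.

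**Figure D2:**
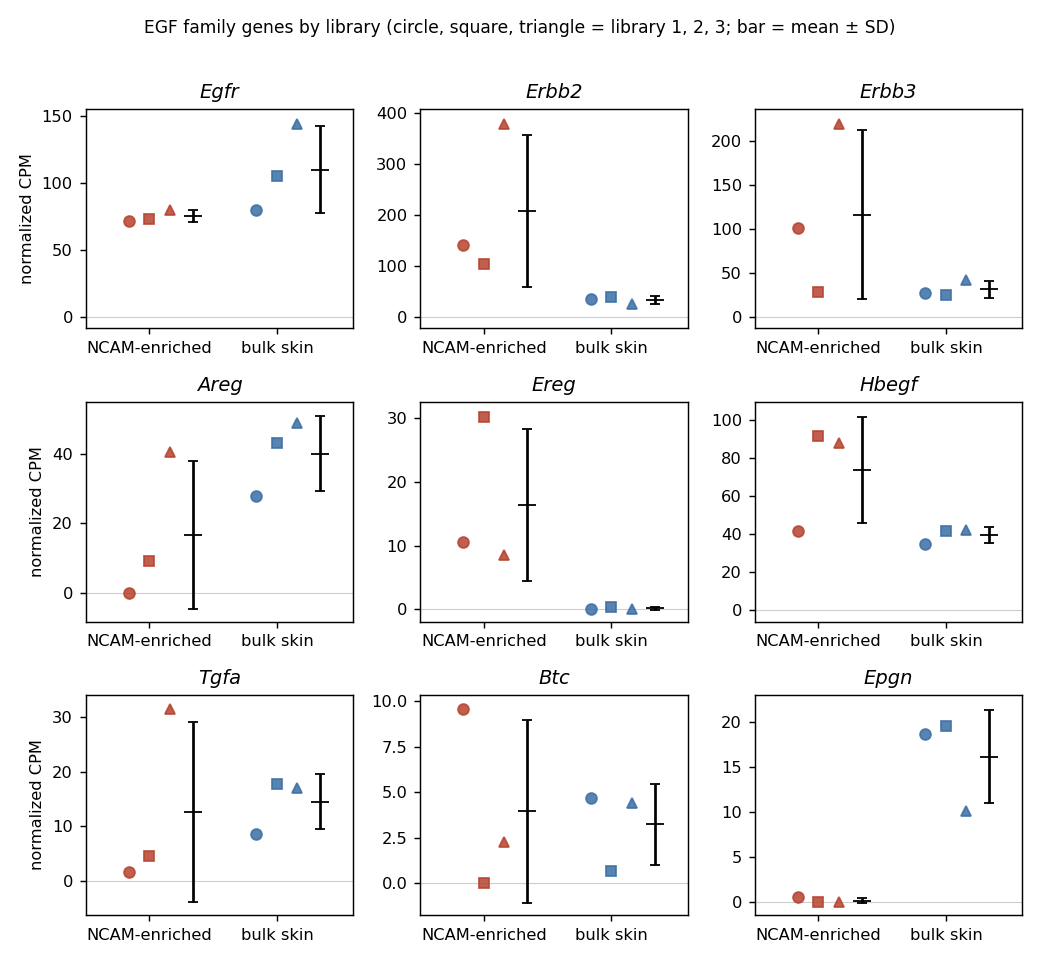
Normalized CPM (y axis, 1 scale per gene) of the 9 genes in the 3 NCAM-enriched (red) and 3 bulk skin (blue) libraries, with the mean and SD as black bars. Erbb2 and Ereg are higher in each NCAM-enriched library and Epgn is higher in each bulk skin library, and NCAM-enriched library 3 (triangle) is the highest of its group for Erbb2 (378), Erbb3 (219), Areg (40.6) and Tgfa (31.5).

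Among the ligands edgeR called 0 of 6, with 2 (Ereg and Epgn) at an unadjusted p under 0.05 (18.9% of all genes), and DESeq2 and limma-voom, which called 14.3% and 9.12% of all genes, each called these 2. Ereg, which encodes epiregulin, a ligand of Egfr and Erbb4, had 20, 39 and 30 counts in the NCAM-enriched group against 0, 2 and 0 in bulk skin. In normalized CPM it was 10.6, 30.1 and 8.51 against at most 0.432. All NCAM-enriched libraries were above all bulk skin libraries, and the 2 bulk skin counts came from library 2, the deepest library. The ratio of pooled counts was 76.3 (95% counting interval 20.5 to 640), and with bulk skin library 2 left out it was at least 30.4, taking 3 counts as the limit of a group with none. The edgeR adjusted p was 0.0690, from 0.000403 to 0.292 over 16 alternatives, of which 4 called it. Ereg passed the filter on low counts through the NCAM-enriched group alone, and the antisense gene Gm19610, which shares 3.42% of its exonic bases, had no counts.

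Epgn, which encodes epigen, a ligand of Egfr, had 60, 90 and 37 counts in bulk skin libraries 1 to 3 and 1, 0 and 0 in the NCAM-enriched libraries. In normalized CPM it was 18.6, 19.5 and 10.1 in bulk skin against at most 0.531. All bulk skin libraries were above all NCAM-enriched libraries. The NCAM-enriched libraries were shallower on average, which makes counts of 0 more likely there. The ratio of bulk skin to NCAM-enriched pooled counts was 109 (95% counting interval 19.3 to 4330), and with NCAM-enriched library 1, which held the single count, left out it was at least 26.1. It was 51.7 without NCAM-enriched library 3, the deepest of the group. The edgeR adjusted p was 0.0670, from 0.000349 to 0.285 over 16 alternatives, of which 4 called it. Epgn passed the filter through bulk skin alone, the group with more RNA of T cells, myeloid cells and red blood cells. Of the hair follicle markers, Lgr6 and Postn were also called higher in bulk skin, while Krt17 was called lower there. The part of any of these cells in the Epgn values was not tested.

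Hbegf (chromosome 18, 36504927 to 36515805, minus strand), the heparin-binding ligand linked to wound closure, had 41.4, 91.2 and 87.7 CPM in the NCAM-enriched group against 34.8, 41.7 and 41.9 in bulk skin. Libraries 2 and 3 of the NCAM-enriched group were above bulk skin, and library 1 fell within its range. Its fitted log2 fold change was 0.89 ± 0.49 (SE; edgeR adjusted p = 0.374) and was above 0 under all 16 alternatives, none of which called it.

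Areg, which encodes amphiregulin, an autocrine ligand of keratinocytes that immune cells also make, had 0, 12 and 143 counts in the NCAM-enriched group against 90, 200 and 178 in bulk skin. The levels were 0, 9.27 and 40.6 CPM against 27.9, 43.2 and 48.8. Bulk skin libraries lay within a narrow range, whereas the NCAM-enriched libraries ran from no count to the bulk skin level. The 0 in library 1 allows up to 3 counts, or 1.59 CPM, on counting error alone. The log2 fold change of -1.24 ± 1.26 (SE; edgeR adjusted p = 0.659) was within the spread of the libraries, and was -3.25 without NCAM-enriched library 3, which carried 143 of the 155 NCAM-enriched counts.

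Tgfa (chromosome 6, 86195223 to 86275719, plus strand), an autocrine ligand of keratinocytes whose loss gives wavy hair in mice, had 1.59, 4.64 and 31.5 CPM in the NCAM-enriched group against 8.69, 17.7 and 17.0 in bulk skin. It resembled Areg in that NCAM-enriched library 3 was high and libraries 1 and 2 were below bulk skin. The log2 fold change of Tgfa was -0.18 ± 1.16 (SE; edgeR adjusted p = 0.957) and was -2.30 without NCAM-enriched library 3 and 0.34 without library 1. Btc, which encodes betacellulin, a ligand of Egfr and Erbb4, had 18, 0 and 8 counts in NCAM-enriched and 15, 3 and 16 in bulk skin libraries. The groups overlapped (log2 fold change 0.30 ± 1.48 SE, edgeR adjusted p = 0.942), and a difference was not detectable at this depth.

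**Figure D3:**
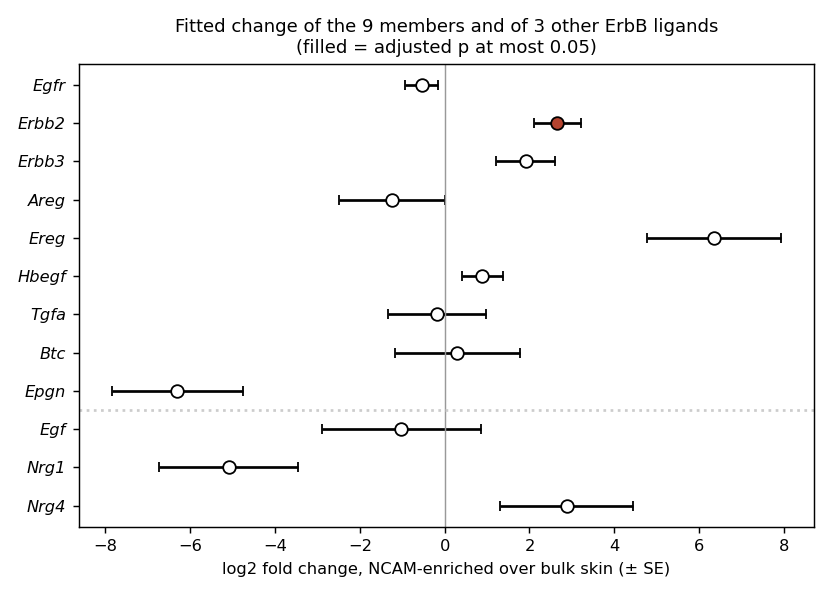
Fitted log2 fold change (x axis, NCAM-enriched over bulk skin, ± SE) of the 9 genes and, under the dotted line, of the 3 other ErbB ligands that were tested. Erbb2 at 2.66 is the filled point, the gene that passed the test, and the open points at 6.35 (Ereg), -6.30 (Epgn) and -5.09 (Nrg1) have 1 group with 2 counts or fewer, so their size depends on the constant added to counts in the fit.

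Per kilobase, the order of the mean ligand levels differed between the groups, which is a description and was not tested. In bulk skin, Areg was the most abundant of the 9 genes (32.9 ± 8.89 CPM per kb, SD, n = 3) and did not overlap with the next in order, Egfr. Epgn (8.90 ± 2.85) and Hbegf (8.17 ± 0.844) followed and overlapped with each other. Tgfa (2.23 ± 0.773), Btc (0.715 ± 0.496) and Ereg (0.0349 ± 0.0605) stood apart from each other in that order. In the NCAM-enriched libraries the order of the ligands was Hbegf (15.2 ± 5.74), Areg (13.7 ± 17.5), Ereg (3.98 ± 2.89), Tgfa (1.94 ± 2.54), Btc (0.873 ± 1.11) and Epgn (0.0980 ± 0.170), and neighbors in the order of all 9 genes overlapped throughout.

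Hbegf made up 62.1%, 54.7% and 30.8% of the summed ligand level in the NCAM-enriched group against 16.8%, 14.9% and 14.9% in bulk skin. Ereg took 18.6%, 21.2% and 3.50% against at most 0.181%. Areg took 0%, 22.1% and 56.7% against 53.6%, 61.4% and 69.2%, and Epgn at most 2.13% against 9.67% to 24.0%. Hbegf was thus a larger share in each NCAM-enriched library than in any bulk skin library, and Areg was the largest share per length in NCAM-enriched library 3 and in all 3 bulk skin libraries. In NCAM-enriched library 1, where Areg had no count, the Hbegf level of 8.57 CPM per kb was within the bulk skin range (7.19 to 8.68). The ligand shares were not tested. Which ligand led rested on the division by length: without it, Areg took 23.8% and Hbegf 51.4% in NCAM-enriched library 3, and in bulk skin Areg took 29.5%, 35.1% and 39.9% and Hbegf 36.7%, 33.9% and 34.3%. The summed ligand level itself was 13.8, 34.5 and 59.0 CPM per kb in NCAM-enriched libraries and 42.9, 58.0 and 58.0 in bulk skin.

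**Figure D4:**
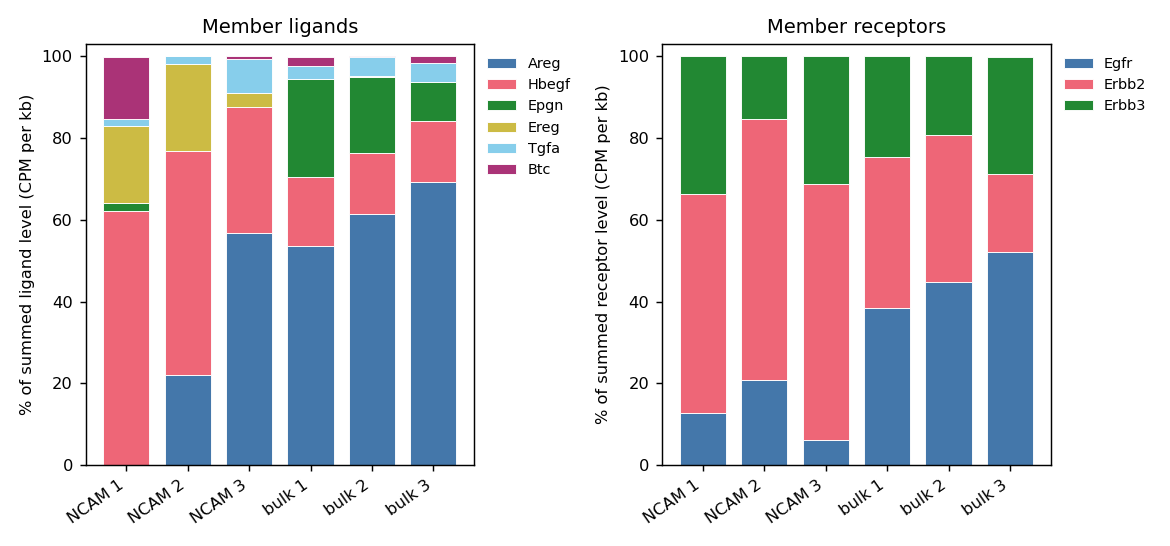
Share (y axis, %) of each member ligand (left) and receptor (right) in the summed level per kilobase of exonic length, 1 bar per library. Areg takes 53.6% to 69.2% of the ligand level in bulk skin and 0% to 56.7% in NCAM-enriched libraries (29.5% to 39.9% and 0% to 23.8% without the division by length), and Erbb2 takes 53.6% to 63.9% of the receptor level in NCAM-enriched libraries and 19.2% to 36.9% in bulk skin.

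The remaining ErbB ligands and receptor were low in both groups, and edgeR called none of the 3 that were tested, with 1 (Nrg1) at an unadjusted p under 0.05. Nrg1, a neuregulin that binds Erbb3 and Erbb4, had 0, 1 and 0 counts in the NCAM-enriched group against 17, 29 and 42 in bulk skin. The pooled counts were 51.3 times lower (95% counting interval 8.97 to 2050), 24.3 times without NCAM-enriched library 3 and at least 13.8 times without library 2, which held the single count. Its edgeR adjusted p was 0.129, and DESeq2 and limma-voom called it lower (0.0151 and 0.0459). Nrg3, a neuregulin that binds Erbb4, had 29, 18 and 0 counts against 0 in all bulk skin libraries, was not tested by edgeR because it did not pass the filter, and was called higher by DESeq2. Pooled, Nrg3 was at least 26.9-fold higher by the same limit of 3 counts, with bounds of 14.3 when NCAM-enriched library 1 was left out and 56.7 when library 3 was, and NCAM-enriched library 3 did not share this pattern.

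Nrg4, also a ligand of Erbb4, had 16, 27 and 12 counts against 12, 3 and 0, a log2 fold change of 2.88 ± 1.57 (SE; edgeR adjusted p = 0.375), and shares 8.97% of its exonic bases with other genes. Erbb4 itself had no count in the NCAM-enriched libraries and 4, 4 and 7 in bulk skin, at least 2.91-fold lower by the same limit, and at least 1.38-fold when NCAM-enriched library 3 was left out. Egf, the founding ligand, had 0, 0 and 17 counts against 12, 0 and 26 (edgeR adjusted p = 0.832), and Nrg2 had 3, 0 and 13 against 7, 7 and 14 and was not tested.

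Downstream and regulatory genes of the pathway were read from the same fit. Of 69 further genes, 65 were tested, 1 was called higher (Grb7) and 0 lower by edgeR, beside 1.04% and 1.55% of all genes, and 12 had an unadjusted p under 0.05, beside 18.9% of all genes. Their median log2 fold change was 0.12. DESeq2 called 2 higher and 3 lower and limma-voom 1 higher and 2 lower.

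Grb7, an adaptor protein that binds activated ErbB receptors, is also the neighbor of Erbb2, lying 8.68 kb beyond it on chromosome 11 (98446394 to 98455373, plus strand). It had 181, 174 and 384 counts in the NCAM-enriched group against 10, 73 and 46 in bulk skin, or 96.2, 134 and 109 against 3.10, 15.8 and 12.6 CPM. All NCAM-enriched libraries were above all bulk skin libraries, and unlike Erbb2 the gene was not highest in library 3. The log2 fold change was 3.42 ± 0.65 (SE; edgeR adjusted p = 0.0341), and the call was lost without NCAM-enriched library 1 (0.0566) and without bulk skin library 1, 2 or 3 (0.155, 0.153 and 0.194). Of the other 22 adaptor and RAS-ERK and PI3K relay genes none was called by edgeR, with 3 at an unadjusted p under 0.05. Mapk3 (ERK1), the gene of this group with the highest CPM, was at 467 ± 242 against 211 ± 29.8 CPM (SD, n = 3; edgeR adjusted p = 0.226).

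Among 18 receptor and ERK feedback inhibitors, edgeR called 0, 4 had an unadjusted p under 0.05, DESeq2 called 2 lower (Dusp6 and Spry4) and limma-voom 1 (Dusp6). Dusp6, an ERK phosphatase induced by ERK signaling and singled out after its values were seen, had 12.8, 6.95 and 23.0 CPM in the NCAM-enriched group against 88.5, 77.8 and 97.3 in bulk skin. All bulk skin libraries were above all NCAM-enriched libraries. This gave a log2 fold change of -2.60 ± 0.58 (SE; edgeR adjusted p = 0.0527, from 0.000646 to 0.278 over 16 alternatives, of which 6 called it). The inhibitors with the highest CPM were Ptpn1, a tyrosine phosphatase, at 366 ± 197 against 182 ± 70.9 CPM (adjusted p = 0.327), and Lrig1, which lowers receptor levels and is also on the hair follicle list, at 123 ± 94.0 against 140 ± 27.4 CPM (adjusted p = 0.905).

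Ligand shedding genes had 0 of 8 called by edgeR, DESeq2 or limma-voom, and 2 had an unadjusted p under 0.05. Adam17, the main sheddase of several of these ligands, was at 118 ± 37.8 against 87.0 ± 11.8 CPM (edgeR adjusted p = 0.616), and Timp3, its inhibitor, at 111 ± 65.5 against 93.5 ± 24.0 CPM (adjusted p = 0.844). ERK target genes had 0 of 13 called by all 3 tools and 1 at an unadjusted p under 0.05. Fos, an immediate early transcription factor, was at 3870 ± 1080 against 3810 ± 407 CPM (edgeR adjusted p = 0.986), and Egr1, another, at 2000 ± 714 against 1160 ± 270 CPM (adjusted p = 0.408).

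**Figure D5:**
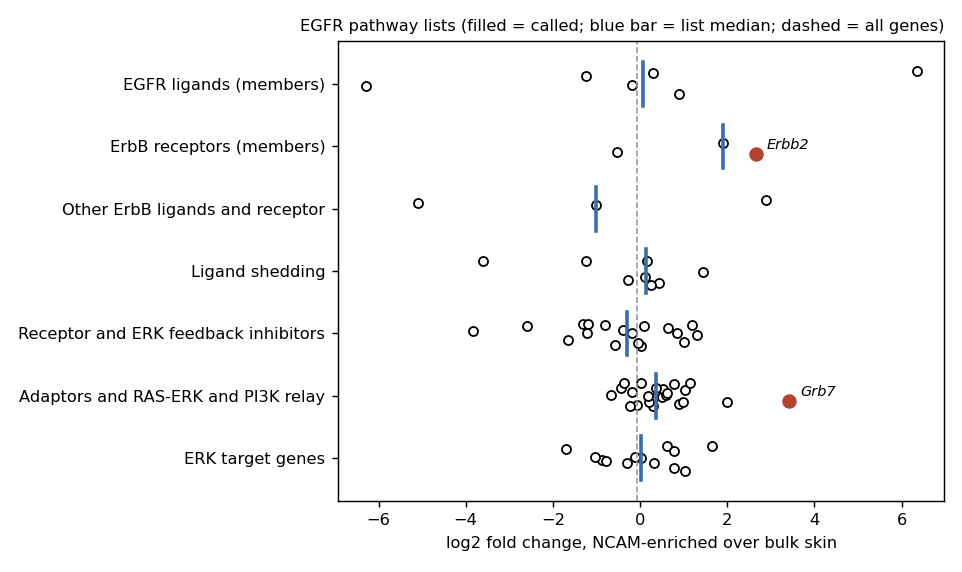
Fitted log2 fold change (x axis) of each tested gene in 7 EGFR pathway lists, with called genes filled and named, list medians as blue bars and the median of all genes, -0.07, dashed. Erbb2 at 2.66 and Grb7 at 3.42 are the filled points, and the feedback inhibitors have a median of -0.29 and the relay genes of 0.37.

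The genes most like the most abundant member ligand and receptor in pattern were found by Pearson's r of log2(CPM + 1) over the 6 libraries, among 8632 genes whose mean reached 20 CPM. For Areg they were Cybc1 (r = 0.995), Bag3 (0.994) and Psat1 (0.991), with 56 genes at 0.95 or above. For Erbb2 they were S1pr5 (0.994), Myo1c (0.988) and Sfn (0.987), with 49 genes at 0.95 or above. S1pr5, a sphingosine-1-phosphate receptor, averaged 84.1 CPM in the NCAM-enriched and 17.0 in the bulk skin libraries. With 6 libraries in 2 groups, such values are a description of these libraries.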

How the data were processed

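Raw read counts per gene, with no normalization, were deposited by the authors for 6 Smart-seq2 libraries. Per the study's methods, the authors clipped adapters, removed abundant sequences, mapped with STAR against GRCm38 and used featureCounts. Which annotation release and strand setting they chose is not given in the sources used here, so reads of overlapping genes cannot be told apart. Positions and exonic lengths came from GENCODE M21, which held 54495 of the 54532 gene IDs.

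Groups came from the labels. The test was the quasi-likelihood F-test of edgeR 4.0.16 in R 4.3.3, with TMM factors and filterByExpr, over all 13157 genes that passed. It was also run on counts simulated from its own means and dispersions with independent libraries. That run checks the code and cannot show that the model suits these libraries. SE was taken as |log2 fold change| over the root of F. DESeq2, the study's own tool, was an alternative (version 1.42.0), as were limma-voom (limma 3.58.1), other size factors and filters, robust dispersion, a block for the replicate number, no mitochondrial genes and each library left out. Library totals ran from 1343190 to 4481830 counts. Intervals (95%, exact) and the limit of 3 counts cover counting error only, since reads are PCR copies without molecular identifiers.

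The 9 genes and the lists were chosen with earlier results of these data known. By rule, the text names the 9 genes, the other ErbB ligands and receptor, from each pathway list up to 4 called genes and, where fewer than 2 were called, the most abundant ones up to 2 in all, at most 2 abundant genes of a marker list, and the 3 genes most alike in pattern to the most abundant ligand and receptor. Named outside this rule after their values were seen were Dusp6, Spry4, Ncam1, Lgr5, Lgr6, Postn, Sox9, Epcam, Dct, Mitf, Mlana, Sox10, Kit, Foxd3 and genomic neighbors. Figures were drawn with matplotlib 3.10.9.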

Additional observations from a re-analysis of the deposited data

How the results depend on the processing

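Among the 9 genes 1 was called higher and 0 lower by edgeR. DESeq2 gave 2 and 1, as did limma-voom, and keeping every gene with a count gave 3 and 1. Upper-quartile factors gave 0 higher (Erbb2 adjusted p = 0.0519), and so did a filter of CPM above 1 in 3 libraries (0.0512). Leaving out each library gave between 0 and 2 higher and between 0 and 1 lower. Among the other pathway genes 1 was higher and 0 lower. DESeq2 gave 2 and 3, limma-voom gave 2 lower, and library totals alone or keeping every gene with a count gave 1 lower. Leaving out each library gave between 0 and 3 higher and between 0 and 2 lower. The cause was not tested. The replicate block gave 0 higher in both sets (Erbb2 adjusted p = 0.120, Grb7 0.0511). The replicate numbers were not taken as pairs: the correlation of same-numbered libraries, as deviations from their group, was 0.0231, 0.000232 and -0.00776, and 2 of 6 libraries correlated best with their own number. Signs held under all 16 alternatives for the 9 genes except Tgfa and Btc, neither called. Tgfa (-0.18) ran from -2.30 to 0.34 with 1 library left out, above 0 without NCAM-enriched library 1 (0.34) or 2 (0.20). Btc (0.30) was -0.21 by limma-voom, -0.52 under the replicate block, and ran from -1.32 (without NCAM-enriched library 1) to 0.84 with 1 library left out, with -0.23 without bulk skin library 2. Without the division by length, the mean ligand share of Areg in bulk skin was 34.8% (61.4% with it), and mean receptor shares of Egfr were 23.5% against 62.4% (13.2% against 45.1%). Over all genes tested, the median moved from -0.07 to 0.16 with DESeq2, -0.37 with limma-voom and -0.36 with the block. With 1 count worth 0.216 to 0.773 CPM, Btc, Egf, Nrg2 and Erbb4 lay near the limit of detection.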

Other observations

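The chromosomal neighbors of Erbb2, looked at after its values were seen, differed in direction. Of 7 other protein-coding genes within 50 kb of Erbb2 on chromosome 11, 5 were tested and 1 (Grb7) was called higher by edgeR. Mien1, which lies between Erbb2 and Grb7, had 43.3 ± 45.0 CPM in NCAM-enriched against 78.8 ± 12.4 in bulk skin libraries (SD, n = 3; log2 fold change -0.86, adjusted p = 0.749). Pgap3, on the other side of Erbb2, had 36.0 ± 29.0 against 10.9 ± 2.52 CPM (log2 fold change 1.72, adjusted p = 0.383), and Stard3 had 34.2 ± 50.1 against 21.1 ± 5.13 CPM (adjusted p = 0.820). Ikzf3, a lymphocyte transcription factor, had 2.74 ± 4.75 against 73.0 ± 30.5 CPM (log2 fold change -4.54, adjusted p = 0.0965).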
